A study of Mus musculus with 6 samples.

Results

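The mesenchymal transcription factors described here are 10 genes, Snai1, Snai2, Twist1, Twist2, Zeb1, Zeb2, Prrx1, Osr1, Meox2 and Tcf21, out of 19938 genes named on the array. They were listed by symbol, and each was read from the transcript cluster (a set of probes for one gene) that the platform annotation gives to that symbol alone; all 10 had exactly 1 such cluster. The arrays came from 3 cultures of Rb1L/L and 3 of Rb1+/+ mouse embryonic fibroblasts, mixed connective tissue cells cultured from whole embryos, made at E13.5, grown to passage 4 and lysed while proliferating. In Rb1L/L cells both copies of Rb1 carry the L allele, which is known to alter the cleft through which the retinoblastoma protein pRb binds proteins with an LXCXE motif, whereas Rb1+/+ cells carry the normal gene; no treatment is given for either genotype. Strain, litter and the number of embryos behind a culture are not stated in the labels, so p-values measure the spread between these cultures. Values are log2 RMA values, a method that summarises background-corrected and quantile-normalised probe intensities per cluster, and on this scale a difference of 1 is a doubling.

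Mesenchyme is the loose tissue of migratory cells that fills the embryo and gives rise to connective tissue, cartilage, bone and fat. Snai1, Snai2, Zeb1 and Zeb2 encode zinc finger proteins that bind E-boxes and repress epithelial genes such as Cdh1 (E-cadherin), and Twist1 and Twist2 encode basic helix-loop-helix proteins that act on the same transition between epithelium and mesenchyme. Prrx1 and Meox2 are homeobox genes of limb, head and somite mesenchyme, Osr1 encodes a zinc finger protein of intermediate mesoderm and limb connective tissue, and Tcf21 encodes a basic helix-loop-helix protein of the mesenchyme around heart, lung, kidney and gonad. pRb is best known for restraining E2F factors and the cell cycle.

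The 6 arrays had medians of 6.39 to 6.45 and correlated at 0.9948 to 0.9961 within and 0.9873 to 0.9927 between genotypes over all tested genes. Rb1 itself averaged 8.93 in Rb1L/L and 8.83 in Rb1+/+ cultures (limma log2 difference 0.11 ± 0.10 SE, adjusted p = 0.519), which does not check the genotype, since the L allele is known to alter the protein and not to remove the transcript. Xist and the Y-linked Eif2s3y marked both cultures numbered 1 as male and the other 4 as female (Eif2s3y at 8.47 in Rb1L/L and 8.36 in Rb1+/+ replicate 1, and at most 3.63 elsewhere). Fibroblast markers were present on every array: of 12 listed, the 11 on the array all lay above background. Their mean log2 value per array was 10.74 to 10.81 in Rb1L/L and 10.88 to 11.001 in Rb1+/+ cultures. Of the 11, 2 (Col3a1 and Lum) were called lower, against 5.07% of all tested genes. A negative difference was seen for 10, against 56.4%, and ranges were separate and lower for 5, against 18.3%. All 11 are also counted among the mesenchymal effector genes below.

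All 10 factors lay above the background threshold of log2 5.08, the 90th percentile of 1207 chemosensory receptor genes, although Tcf21 exceeded it by only 0.29 and Meox2 by 0.85. Only Snai2 passed the test between genotypes (limma over 15475 genes, Benjamini-Hochberg adjusted p under 0.05), and it was lower in Rb1L/L cultures. No factor was called higher. Of all tested genes 12.2% were called in either direction and 5.07% as lower, so 1 called factor among 10 was near the background. When the replicate number entered the fit as a block, Osr1 passed as well, giving 2 of 10 factors against 14.4% of all genes (7.95% higher and 6.44% lower). At an unadjusted p under 0.05, 5 of the 10 factors differed, against 28.7% of all tested genes. The ranges of the genotypes did not overlap for 4 factors (Snai2, Zeb1, Zeb2 and Osr1, all lower in Rb1L/L), while 34.5% of all tested genes had separate ranges and 18.3% had them in that direction.

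**Figure D1:**
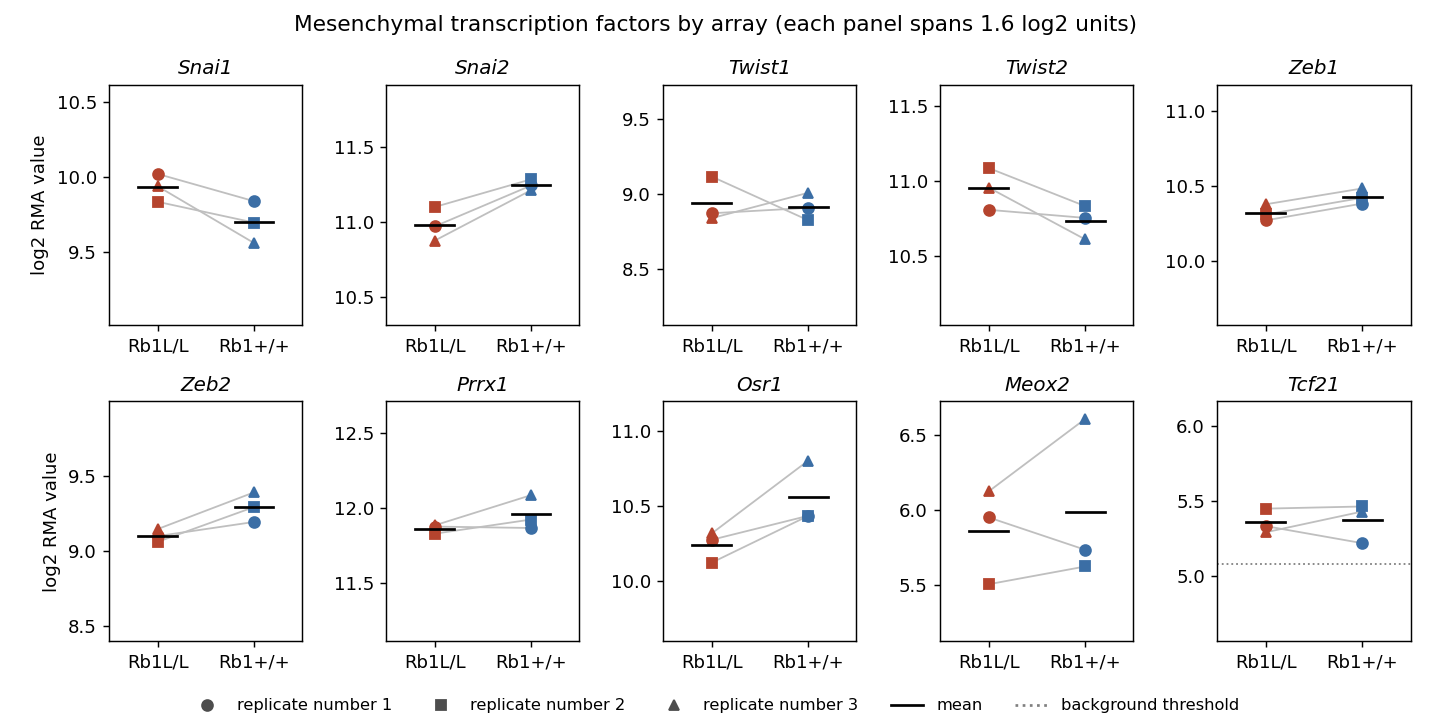
Log2 RMA value (vertical axis, 1.6 log2 units in every panel) of each factor in the 3 Rb1L/L arrays (red, left) and the 3 Rb1+/+ arrays (blue, right); symbols and grey lines join arrays of the same replicate number, black bars are group means and the dotted line is the background threshold of 5.08. All Snai2 and Osr1 values of Rb1L/L arrays lie below those of Rb1+/+ arrays, and Meox2 spreads most, from 5.51 to 6.61.

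Of the Snail genes, Snai2 fell and Snai1 did not pass the test. Snai2 (Slug), a repressor active in neural crest and fibroblasts, measured 10.97, 11.10 and 10.87 in Rb1L/L cultures, against 11.24, 11.28 and 11.21 in Rb1+/+ cultures. Every Rb1L/L value lay below every Rb1+/+ value. The mean fell by 0.27 on the log2 scale (SE 0.07, 95% interval -0.43 to -0.11, adjusted p = 0.0446), which is 16.8% lower, and all 3 same-numbered pairs showed that direction, at -0.27, -0.19 and -0.34. The call needed nearly all arrays: it was kept without Rb1L/L replicate 2 (adjusted p = 0.0481), and lost without Rb1L/L replicate 1 (0.127) or 3 (0.109) and without Rb1+/+ replicate 1 (0.103), 2 (0.101) or 3 (0.0823). It was also lost after median centring (adjusted p = 0.0598) and without the filter on dim genes (0.0549), and was kept with the block (0.0334).

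Snai1 (Snail), the founding repressor of E-cadherin, measured 10.02, 9.83 and 9.94 in Rb1L/L cultures, against 9.84, 9.70 and 9.56 in Rb1+/+ cultures. The groups touched, because Rb1L/L replicate 2 lay just below Rb1+/+ replicate 1, yet each same-numbered pair was positive (0.18, 0.14 and 0.38). The log2 difference of 0.23 ± 0.08 (SE, 95% interval 0.04 to 0.43) did not pass (adjusted p = 0.111, or 0.0677 with the block).

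Snai1 protein is known, from human cells, to bind an E-box in its own promoter, and the sequence upstream of mouse Snai1 is shown for that reason beside those of the Twist pair. Promoter entries were found in RefSeq (GRCm38.p6) for 7 of the 10 factors; Snai2, Zeb1 and Osr1 were without one. The 250 bases before the annotated start are printed on the plus strand, with capitals marking CAGGTG (or its reverse complement CACCTG) and CCAAT (or ATTGG).
Snai1, chr2:167537945-167538194: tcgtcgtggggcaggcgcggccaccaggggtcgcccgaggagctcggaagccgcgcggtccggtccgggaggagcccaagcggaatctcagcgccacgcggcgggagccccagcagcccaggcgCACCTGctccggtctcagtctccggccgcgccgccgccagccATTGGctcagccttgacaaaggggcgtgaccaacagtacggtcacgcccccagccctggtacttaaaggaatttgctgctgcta
Twist1, chr12:33957421-33957670: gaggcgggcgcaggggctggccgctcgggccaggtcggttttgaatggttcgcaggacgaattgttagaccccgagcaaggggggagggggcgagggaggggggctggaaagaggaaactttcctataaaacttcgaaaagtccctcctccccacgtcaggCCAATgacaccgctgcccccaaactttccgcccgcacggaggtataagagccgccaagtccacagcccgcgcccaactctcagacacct
Twist2, chr1:91801211-91801460: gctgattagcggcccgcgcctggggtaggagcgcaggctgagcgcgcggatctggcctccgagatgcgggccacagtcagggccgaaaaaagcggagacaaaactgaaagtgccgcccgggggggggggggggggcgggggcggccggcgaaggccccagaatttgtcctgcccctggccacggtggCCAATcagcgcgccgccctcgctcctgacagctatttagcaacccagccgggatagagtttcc

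The CAGGTG E-box occurred in the Snai1 window, 126 bases before the start and on the minus strand, and in none of the windows of Twist1, Twist2, Zeb2, Prrx1, Meox2 and Tcf21. Of 32851 windows of the same length over all genes, 17.2% hold it on either strand. The CCAAT motif lay 84, 89 and 63 bases before the starts of Snai1, Twist1 and Twist2, occurred 238 and 89 bases before 1 of the annotated starts of Zeb2, and is in 33.8% of all windows. Matches to the E2F motif written as TTTCCCGC, TTTCGCGC, TTTGCCGC or TTTGGCGC on either strand, present in 1.86% of all windows, were found in no window of the 7 factors. The 3 printed windows hold 27, 18 and 23 CpG dinucleotides, against a median of 6 over all windows. A match describes the letters of these windows and not binding.

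The Zeb genes were both slightly lower in Rb1L/L cultures without passing the test. Zeb2 measured 9.10, 9.06 and 9.15 in Rb1L/L cultures, against 9.19, 9.29 and 9.39 in Rb1+/+ cultures, with no overlap. Its log2 difference was -0.19 ± 0.07 (SE, 95% interval -0.34 to -0.04, adjusted p = 0.102, or 0.0875 with the block). Zeb1 measured 10.27, 10.31 and 10.38 in Rb1L/L cultures, against 10.38, 10.42 and 10.48 in Rb1+/+ cultures. The highest Rb1L/L value lay just under the lowest Rb1+/+ value, and the 3 pairs were nearly identical at -0.11, -0.11 and -0.11. Even so the difference of -0.11 ± 0.06 (SE, 95% interval -0.25 to 0.03) did not pass (adjusted p = 0.261).

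Zeb1 and Zeb2 transcripts are known targets of the miR-200 family, epithelial microRNAs that the Zeb proteins repress in turn. The mature family members are printed from RefSeq with the seed (bases 2 to 8) in capitals, because they fall into 2 seed groups, AACACUG and AAUACUG.
mmu-miR-141-3p: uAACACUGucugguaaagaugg
mmu-miR-200a-3p: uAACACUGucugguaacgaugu
mmu-miR-200b-3p: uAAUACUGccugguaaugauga
mmu-miR-200c-3p: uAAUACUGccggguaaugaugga
mmu-miR-429-3p: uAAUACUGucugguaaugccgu

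The array clusters named for these microRNA genes were dim in both genotypes, and they measure transcripts of the locus, not mature microRNA. Mir200a measured 5.98, 6.11 and 6.22 in Rb1L/L cultures, against 6.12, 6.35 and 6.13 in Rb1+/+ cultures (log2 difference -0.10, 95% interval -0.30 to 0.11, adjusted p = 0.523). Mir200c lay between 5.09 and 5.22 in Rb1L/L and between 5.16 and 5.30 in Rb1+/+ cultures (-0.07, adjusted p = 0.531). Mir141 was below the threshold on every array, at 3.59 to 3.76 in Rb1L/L and 3.53 to 3.71 in Rb1+/+ cultures. Mir200b averaged below it too and was not tested, at 4.76, 4.88 and 4.86 in Rb1L/L and 5.16, 5.0 and 5.15 in Rb1+/+ cultures. Mir429 had no cluster under its symbol alone and was not used here.

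The Twist genes did not pass. Twist2, known from dermal mesenchyme, measured 10.81, 11.09 and 10.96 in Rb1L/L cultures, against 10.76, 10.83 and 10.61 in Rb1+/+ cultures. Each pair was positive, but Rb1L/L replicate 1 lay below Rb1+/+ replicate 2, and the log2 difference of 0.22 ± 0.09 (SE, 95% interval 0.02 to 0.42) had an adjusted p = 0.145 (0.0929 with the block). Twist1, which is needed for cranial mesenchyme and limb buds, measured 8.87, 9.12 and 8.84 in Rb1L/L cultures, against 8.91, 8.82 and 9.01 in Rb1+/+ cultures. Its groups were interleaved, and the 95% interval of the difference ran from -0.17 to 0.23 around 0.03 (adjusted p = 0.865).

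**Figure D2:**
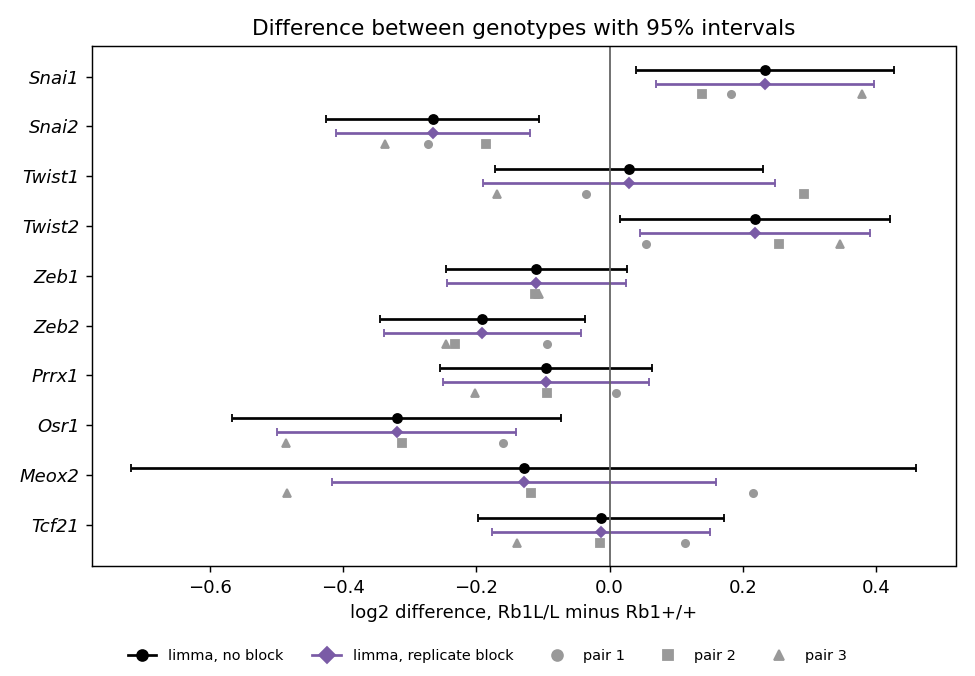
Log2 difference, Rb1L/L minus Rb1+/+ (horizontal axis), of each factor with its 95% interval from limma without a block (black circles) and with the replicate number as a block (purple diamonds); grey symbols are the 3 same-numbered pairs. The intervals of Snai1 and Twist2 lie above 0 and those of Snai2, Zeb2 and Osr1 below it, all within 0.57 of 0.

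Whether paralogues changed unequally was read within each array, since levels of different clusters cannot be set against each other but their difference can be followed from array to array. Snai1 minus Snai2 was -0.95, -1.26 and -0.94 in Rb1L/L cultures, against -1.40, -1.59 and -1.65 in Rb1+/+ cultures. The difference shifted toward Snai1 by 0.50 on the log2 scale, a 1.41-fold change of the ratio, and the groups did not overlap. The exact two-sided permutation test gave p = 0.1, the smallest value that 3 against 3 arrays allow (0.3 adjusted over the 3 paralogue pairs). A limma fit with the replicate block gave an adjusted p = 0.0184, against 0.252 for the Twist and 0.526 for the Zeb pair. That fit held the 3 paralogue differences alone, for its spread estimate and its adjustment. Its p-values are therefore not comparable with those over all tested genes. The shift is computed from the Snai1 and Snai2 values given above and is not independent of them. Twist1 minus Twist2 was -1.94, -1.97 and -2.12 in Rb1L/L cultures, against -1.85, -2.01 and -1.61 in Rb1+/+ cultures, a shift of -0.19 with overlapping groups (exact permutation p = 0.3). Zeb1 minus Zeb2 was 1.17, 1.25 and 1.23 in Rb1L/L cultures, against 1.19, 1.13 and 1.09 in Rb1+/+ cultures, a shift of 0.08 (exact permutation p = 0.2).

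**Figure D3:**
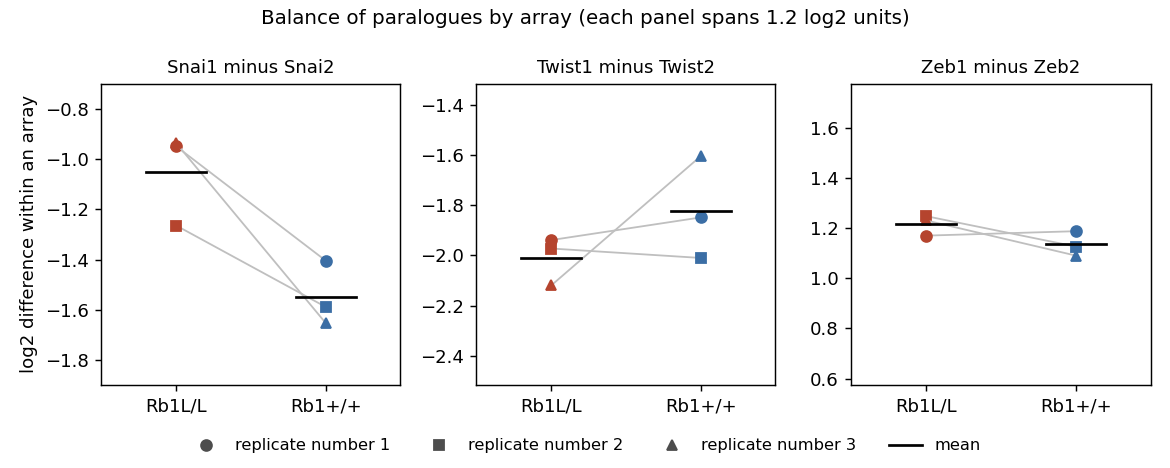
Log2 difference between 2 paralogues within each array (vertical axis, 1.2 log2 units in every panel) for the 3 Rb1L/L arrays (red, left) and the 3 Rb1+/+ arrays (blue, right); symbols mark the replicate number and black bars the means. Snai1 minus Snai2 is separate between genotypes, with means of -1.05 in Rb1L/L and -1.55 in Rb1+/+ cultures, and the other panels overlap.

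Osr1 had the largest difference among the factors in size. It measured 10.27, 10.12 and 10.32 in Rb1L/L cultures, against 10.43, 10.43 and 10.80 in Rb1+/+ cultures, and the groups were apart. The log2 difference was -0.32 ± 0.11 (SE, 95% interval -0.57 to -0.07) with an adjusted p = 0.0919. Replicate 3 was the highest array of each genotype, and with the block the standard error was 0.08 and Osr1 was called lower (adjusted p = 0.0356); the pairs stood at -0.16, -0.31 and -0.49. Without Rb1+/+ replicate 3 the difference was -0.20 (adjusted p = 0.163).

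Prrx1, which marks limb and head mesenchyme and many fibroblasts, measured 11.87, 11.83 and 11.88 in Rb1L/L cultures, against 11.86, 11.92 and 12.08 in Rb1+/+ cultures. The groups overlapped, and the 95% interval of the difference was -0.26 to 0.06 (adjusted p = 0.408). Meox2, which acts in somites and limb muscle, measured 5.95, 5.51 and 6.13 in Rb1L/L cultures, against 5.74, 5.63 and 6.61 in Rb1+/+ cultures. It had the widest spread of the 10, replicate 2 being lowest and replicate 3 highest in both genotypes, and its interval of -0.72 to 0.46 leaves differences in either direction possible (adjusted p = 0.784). Tcf21 measured 5.33, 5.45 and 5.29 in Rb1L/L cultures, against 5.22, 5.46 and 5.43 in Rb1+/+ cultures, close to the threshold throughout (95% interval -0.20 to 0.17, adjusted p = 0.937).

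Besides the genotype, Rb1+/+ replicate 3 and Rb1L/L replicate 2 held many of the extreme values of the factors. Rb1+/+ replicate 3 was the highest array for 5 of the 10 (Zeb1, Zeb2, Prrx1, Osr1 and Meox2) and the lowest for Snai1 and Twist2, whereas it was the highest for 21.4% and the lowest for 17.3% of all tested genes. Osr1 lay 0.41 and Meox2 0.68 above their means over the 6 arrays in that culture. Rb1L/L replicate 2 was the lowest array for Zeb2, Prrx1, Osr1 and Meox2 and the highest for Twist1 and Twist2. It was the lowest for 21.0% and the highest for 15.6% of all tested genes. All 3 pairs had the same sign for 6 of the factors (60%), against 52.3% of all tested genes.

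**Figure D4:**
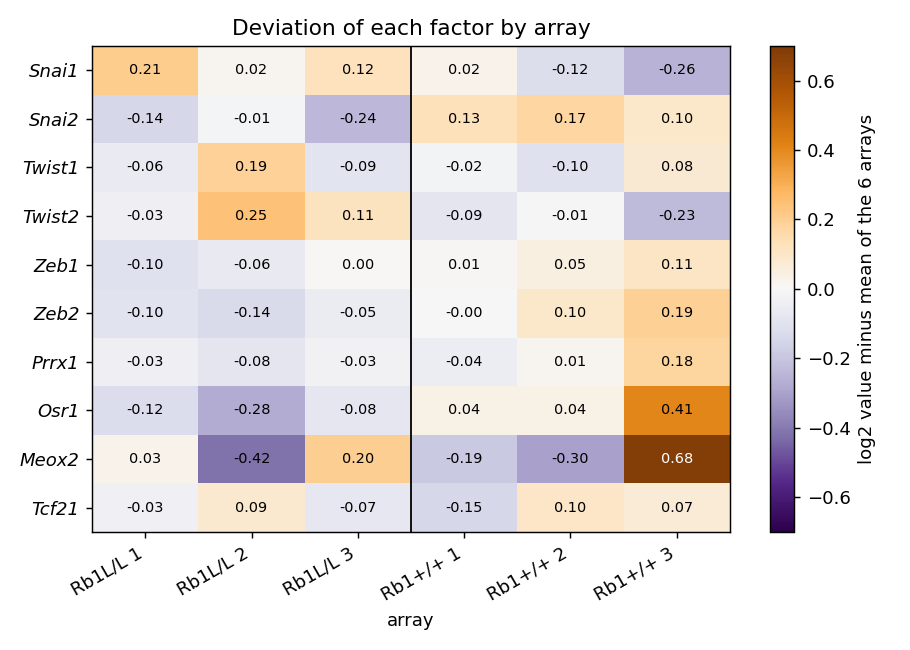
Log2 value minus the mean of the 6 arrays (colour and number in each cell) for each factor (rows) in the 3 Rb1L/L arrays (left) and the 3 Rb1+/+ arrays (right). Rb1+/+ replicate 3 holds the highest values of Meox2 (0.68), Osr1 (0.41), Zeb2 (0.19), Prrx1 (0.18) and Zeb1 (0.11).

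For the 2 factors of widest range, the tested genes with the most similar pattern over the 6 arrays are given as a description, picked from all tested genes. For Meox2 they were Nsmf (Pearson r = 0.997), Mtmr7 (0.992) and Syne1 (0.988), and for Osr1 Ctps2 (0.995), Klhl15 (0.995) and Cep20 (0.994). None of the 6 was called between genotypes, with adjusted p of 0.201 to 0.846. Their own differences were small, at -0.04 for each of the first 3 and between -0.15 and -0.11 for the others.

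In the list of relatives and partners of the factors, differences ran from -0.38 (Meox1) to 0.34 (Id4). Of 22 tested genes in this list (family members, the E proteins Tcf3, Tcf4 and Tcf12 that pair with Twist and Tcf21, the Id inhibitors of such pairs and the Zeb corepressors Ctbp1 and Ctbp2) none was called by limma, and 4 had an unadjusted p under 0.05: Tcf4 (-0.25, adjusted p = 0.0686), Id2 (-0.16, 0.0901), Id4 (0.34, 0.103) and Id3 (0.17, 0.114), named after their values were seen. Of all genes 7.09% were called higher and 5.07% lower, and 28.7% had an unadjusted p under 0.05. With the block Id4 passed (adjusted p = 0.0487). The closest paralogues of the single factors had intervals that include 0: Prrx2 at -0.04 (95% interval -0.25 to 0.16), Osr2 at -0.19 (-0.43 to 0.05) and Meox1 at -0.38 (-1.02 to 0.25).

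Epithelial genes, which several of the factors are known to repress, were in part not above background. Of 41 on the array 30 lay above the threshold, against 15475 of all 19938 genes. The 11 below it included Epcam, Esrp1, Grhl2 and Ocln. Cdh1 was barely above the threshold at 5.30, 5.32 and 5.41 in Rb1L/L, against 5.44, 5.36 and 5.26 in Rb1+/+ cultures (difference 0.00, 95% interval -0.16 to 0.15). Other listed genes were bright, and 3 are named after their values were seen. Jup averaged 11.61 in Rb1L/L and 11.59 in Rb1+/+ cultures, Klf5 9.70 and 9.67, and Krt19 9.20 and 9.01. Of the 30 tested, 1 was called higher and none lower by limma, against 7.09% higher and 5.07% lower over all genes. An unadjusted p under 0.05 was seen for 5, against 28.7% of all genes. The median difference was -0.04, against -0.02 over all tested genes. The gene that rose was St14, which encodes the membrane protease matriptase, at 7.15, 7.11 and 7.14 in Rb1L/L cultures, against 6.80, 6.45 and 6.74 in Rb1+/+ cultures (0.47 ± 0.09 SE, adjusted p = 0.0182; 0.0618 without Rb1L/L replicate 1 and 0.0545 without Rb1L/L replicate 2). Cdh3 (P-cadherin) measured 9.48, 9.94 and 9.71 in Rb1L/L cultures, against 9.33, 9.48 and 9.02 in Rb1+/+ cultures, and passed with the block alone (0.43, adjusted p = 0.0852 without and 0.0341 with it; named after its values were seen).

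Mesenchymal effector genes, the matrix, adhesion and cytoskeletal genes typical of fibroblasts, had mostly negative differences. Of 30 tested, 26 had a negative difference, against 56.4% of all tested genes, and the median was -0.12, against -0.02 over all tested genes. The ranges were separate and lower for 17 of the 30, against 18.3% of all tested genes. Of the 30, 2 were called lower, against 5.07% of all genes (4 with the block, against 6.44%, then with Itga5 at -0.22 and Dcn at -0.31, named after their values were seen). Col3a1, a fibrillar collagen gene, fell to 8.68, 8.65 and 8.72 in Rb1L/L cultures, against 9.04, 8.98 and 9.0 in Rb1+/+ cultures (-0.33 ± 0.05 SE, adjusted p = 0.0112). Lum, which encodes the collagen-binding proteoglycan lumican, fell by 0.39 (SE 0.09, adjusted p = 0.0348; 0.0855 and 0.0968 without Rb1L/L replicate 1 and 2, 0.0734 and 0.0948 without Rb1+/+ replicate 2 and 3). Cdh2 (N-cadherin, -0.22, adjusted p = 0.0711), Fn1 (fibronectin, -0.14, 0.187) and Vim (vimentin, -0.12, 0.198) did not pass.

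Among 55 other transcription factors of embryonic mesenchyme, 40 had a negative difference, against 56.4% of all tested genes, and the median was -0.08, against -0.02. Ranges were separate and lower for only 7 of the 55, against 18.3% of all tested genes. They were separate and higher for 2, against 16.2%. The 1 called gene of 55, where 12.2% of all genes were called, was Pax1, a factor of the sclerotome, at 7.31, 7.30 and 7.42 in Rb1L/L cultures, against 7.61, 7.55 and 7.60 in Rb1+/+ cultures (-0.24 ± 0.06 SE, adjusted p = 0.0367, or 0.0532 after median centring). It was lost without any single array other than Rb1L/L replicate 3, with adjusted p of 0.0592 to 0.123. With the block 4 passed, where 14.4% of all genes did, Tbx3 (-0.30, adjusted p = 0.0326), Nfia (-0.26, 0.0464) and Ebf3 (-0.28, 0.0472) being added; these were named after their values were seen.

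Signals that induce the factors, and enzymes that turn their proteins over, included 5 called genes. Of 28 tested, 4 fell and 1 rose, against 5.07% lower and 7.09% higher over all tested genes, and the median was -0.09. With the block 5 fell and 1 rose (6.44% lower and 7.95% higher over all genes), Fbxw11, a close relative of Btrc named after its value was seen, being added (-0.23, adjusted p = 0.0704 without and 0.0456 with the block). Tgfb2, a ligand that induces Snai and Zeb genes, fell to 9.31, 9.15 and 9.43 in Rb1L/L cultures, against 9.91, 9.83 and 10.03 in Rb1+/+ cultures (-0.63 ± 0.09 SE, adjusted p = 0.0055). Btrc, the ubiquitin ligase subunit that marks phosphorylated Snai1 protein for destruction, fell to 9.22, 9.18 and 9.18 in Rb1L/L cultures, against 9.59, 9.47 and 9.64 in Rb1+/+ cultures (-0.37 ± 0.06 SE, adjusted p = 0.0112). Fbxo11, another ligase subunit known to act on Snail proteins, fell by 0.28 (SE 0.06, adjusted p = 0.02), and Met, the receptor of hepatocyte growth factor, rose by 0.34 (SE 0.08, adjusted p = 0.0321). Fbxo11 and Met each passed in 2 of the 6 fits without 1 array: Fbxo11 was lost without Rb1L/L replicate 1 or 2 or Rb1+/+ replicate 1 or 3 (0.0562 to 0.0749), and Met without any Rb1L/L replicate or Rb1+/+ replicate 1 (0.0513 to 0.106). Fgf2, called as well and named after its value was seen, had a difference of -0.33 (adjusted p = 0.0436). Transcript levels do not measure the proteins these enzymes act on.

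**Figure D5:**
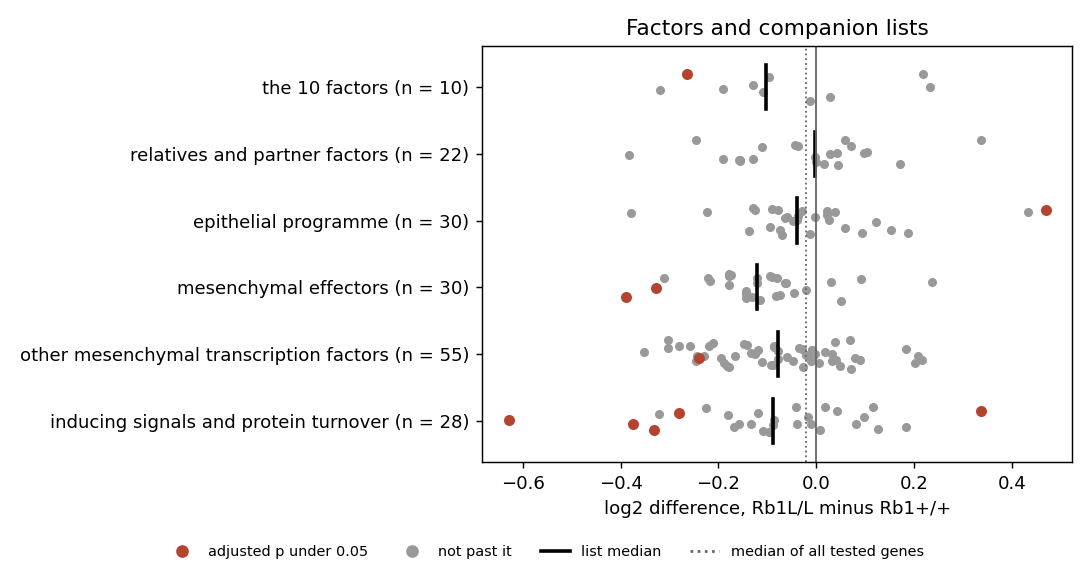
Log2 difference, Rb1L/L minus Rb1+/+ (horizontal axis), of the 10 factors and of the tested genes of 5 related lists (rows); red points passed the adjusted p threshold, grey points did not, black bars are list medians and the dotted line is the median of all tested genes (-0.02). Red points number 1 among the factors, 0 among relatives and partners and 5 among inducing signals and turnover genes.

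Bulk arrays cannot tell fewer cells of a type from less RNA per cell, and markers of other cell types moved in part with the genotype. Over all tested genes 7.09% were called higher and 5.07% lower. Of 10 tested neural and glial markers 3 were called lower (Fabp7 by 0.50, Tubb3 by 0.48 and Ncam1 by 0.30) and none was called higher. Before adjustment, 6 of these 10 differed at the 0.05 level, against 28.7% of all tested genes. A negative difference was seen for 8 of the 10, against 56.4%. Gap43, named after its values were seen, went the other way with separate ranges (0.37, limma adjusted p = 0.112). Dcx and Pax6 were below background. The mean log2 value of the 10 tested markers per array was 7.81 to 7.97 in Rb1L/L and 8.03 to 8.11 in Rb1+/+ cultures. Of 17 macrophage and blood markers Cd14 (0.35), Adgre1 (0.95) and C1qa (0.34) rose and Cx3cr1 (-0.34) fell, with mean values of 7.10 to 7.49 in Rb1L/L and 6.83 to 7.32 in Rb1+/+ cultures. Only 3 of the 17 had a negative difference, against 56.4% of all tested genes. Ranges were separate and higher for 3 of the 17 and separate and lower for 1, against 16.2% and 18.3%. Of 12 endothelial markers Kdr rose (0.58), Pecam1 and Sox17 were below background, and mean values were 6.23 to 6.29 in Rb1L/L and 6.16 to 6.30 in Rb1+/+ cultures. No skeletal muscle marker (14 tested, 3 at an unadjusted p under 0.05) and no cartilage or bone marker (10 tested, 2 at that level) was called by limma. Of all tested genes 28.7% passed that unadjusted level. Differences were negative for 11 of the 14 muscle and 9 of the 10 cartilage and bone markers, against 56.4% of all tested genes. Ranges were separate and lower for 3 muscle and 5 cartilage and bone markers, against 18.3%. The mean value of muscle markers was 6.42 to 6.43 in Rb1L/L and 6.49 to 6.52 in Rb1+/+ cultures, and that of cartilage and bone markers 6.38 to 6.45 in Rb1L/L and 6.46 to 6.56 in Rb1+/+ cultures. The calls of Fabp7 and Kdr held in all 6 fits without 1 array. Ncam1 was lost without Rb1L/L replicate 1 (adjusted p = 0.0549), Cd14 without Rb1L/L replicate 2 (0.0586) or Rb1+/+ replicate 1 (0.0561), and Adgre1 without Rb1+/+ replicate 1 (0.0654) or 2 (0.0571). Of the 6 fits, the calls of Tubb3, C1qa and Cx3cr1 held only in the one without Rb1+/+ replicate 3, Rb1L/L replicate 1 and Rb1+/+ replicate 2 in turn, with adjusted p of up to 0.0965, 0.12 and 0.126 in the others; C1qa was also lost with the block (0.0502). The interferon-induced genes, a list chosen with earlier results of these arrays known, were called higher for 16 of 16 tested, with a median difference of 1.88. The part of these cell types and of the interferon-induced genes in the values of the 10 factors was not tested.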

How the data were processed

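RNA of 6 cultures was labelled with biotin and hybridised to 1 Affymetrix mouse gene array each, per the labels. The authors deposited log2 values made with RMA, with Partek also named, per the submitters' processing notes. Versions, settings and the genome build were not given in the sources used here. Because RMA gives the probe intensities of all arrays one distribution before they are summarised per cluster, it would hide a global shift, and it understates folds near background. The number of arrays limits the precision.

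Of 35556 clusters, 21789 carried 1 symbol, 1621 several and 12146 none. Symbols were updated through gene IDs (21698 matched, GRCm38.p6), the brightest cluster per gene was kept, and 15475 of 19938 genes exceeded the background threshold. Genotypes were compared with limma 3.58.1 (R 4.3.3; lmFit, eBayes) over all of them, Rb1L/L minus Rb1+/+, without a block. Same-numbered arrays deviated together (r = 0.30, 0.24 and 0.30) and the design speaks of pairs, so the fit with a replicate block is given where it changes a call. Alternatives were the block, median centring, quantile normalization, other filters and cluster rules, trended robust moderation, array weights and leaving out arrays. The procedure was tested on simulated data. Members and the 12 lists were chosen with earlier results of these data known; genes named are all members, up to 4 called genes of smallest p per list, Rb1, Xist and Eif2s3y, the genes most like Meox2 and Osr1, and those marked as chosen later. Uncalled genes named as close relatives, miR-200 genes or familiar markers (Prrx2, Osr2, Meox1, Mir200a to Mir200c, Mir141, Mir429, Cdh1, Cdh2, Fn1 and Vim) and genes below background lie outside this rule and were chosen after their values were seen.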

Additional observations from a re-analysis of the deposited data

How the results depend on the processing

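The factors were refitted under 17 alternatives (16 for Meox2 and Tcf21, which drop out at a minimum mean of log2 6). Snai1, Twist2, Zeb1, Zeb2 and Prrx1 kept their direction and missed the threshold in all of them. Osr1 kept its direction and passed with the block alone, and Snai2 kept its direction and passed in 7 of 17. The sign turned for 3 factors, none of them past the threshold: Twist1 was -0.058, -0.016 and -0.10 without replicate 2 of Rb1L/L, of Rb1+/+ and of both, Meox2 was 0.049, 0.18 and 0.049 without Rb1L/L replicate 2, Rb1+/+ replicate 3 and both arrays numbered 3, and Tcf21 was 0.0086 after median centring, 0.018 after quantile normalization, 0.020 without Rb1L/L replicate 3, 0.033 and 0.017 without Rb1+/+ replicate 2 and 3, and 0.0497 without both arrays numbered 3. Without any 1 array, Twist1 ranged from -0.058 to 0.080, Meox2 from -0.31 to 0.18 and Tcf21 from -0.089 to 0.033. The cause of these turns was not tested.

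The 1882 calls over all genes (1097 higher and 785 lower; 2226 with the block, 1259 and 597 after median centring, 1005 and 915 after quantile normalization) lay between 622 and 1441 without 1 array and numbered 92, 454 and 460 without both arrays numbered 1, 2 and 3, with fewer samples in each fit. Calls over all genes numbered 2229 with trended and robust moderation and 2007 with array weights. They numbered 2071 of 12586 genes at a minimum mean of log2 6 and 1601 of 19938 without the filter. Called factors numbered 2 with the block, 0 after median centring, 0 without the filter on dim genes and 0 to 1 without arrays. Called relatives and partners numbered 1 with the block, 2 with trended and robust moderation and 0 to 2 without arrays. Epithelial calls numbered 2 with the block, 2 without the filter and 0 to 1 without arrays, and effector calls 4 with the block, 7 with trended and robust moderation and 0 to 3 without arrays. Calls among other mesenchymal factors numbered 4 with the block, 0 after median centring, 2 after quantile normalization, 2 at a minimum mean of log2 6, 2 with trended and robust moderation, 2 with array weights and 0 to 4 without arrays, and those among inducing signals and turnover genes 0 to 5 without arrays. Without arrays the paralogue shift was 0.39 to 0.61 for Snai1 minus Snai2, -0.30 to -0.03 for Twist1 minus Twist2 and 0.05 to 0.13 for Zeb1 minus Zeb2. The limma fit with the block, made on the 3 paralogue differences alone, gave 0.50 for Snai1 minus Snai2 (adjusted p = 0.0184). The 95% intervals of Twist1, Zeb1, Prrx1, Meox2 and Tcf21 included 0 and small changes around it. They ran from -0.17 to 0.23 for Twist1 and from -0.72 to 0.46 for Meox2. Meox2 and Tcf21 lie close to background.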
